A study of Mus musculus with 8 samples.

Results

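The genes described here are 10 genes of the neuronal cytoskeleton and of neurite growth: Tubb3, Dcx, Map1b, Map2, Mapt, Stmn2, Gap43, Nefl, Nefm and Sox11. They were taken by name from the 22180 genes that have a probe set of their own on the array, and each of the 10 is read by 1 such probe set. All 10 were among the 15526 genes bright enough to be tested. The arrays came from medulloblastomas, tumours of the cerebellum, of mice at postnatal day 15. In the 4 Bcl2l1-deleted tumours (genotype Math1-Cre/SmoM2/Bcl2l1 f/f) Cre recombinase removed floxed alleles of Bcl2l1, which encodes the anti-apoptotic protein BCL-xL. The 4 control tumours (Math1-Cre/SmoM2) carried the same Cre and the same SmoM2, an active form of Smoothened that switches on Sonic hedgehog signalling. Cre was driven from the Math1 (Atoh1) promoter, which is active in granule neuron precursors, so it acts in these cells and their descendants. Which other cells of the tumour piece carried the deletion was not measured here. The mice received no agent, and per the study's design text each array is a separate animal.

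A neuron builds its processes on microtubules, which are polymers of tubulin, and the axon is widened by neurofilaments. Doublecortin, the MAP proteins and tau bind and stabilise microtubules, stathmins release tubulin, and GAP-43 lies under the membrane of the growth cone. In the young cerebellum, doublecortin, beta-III tubulin and SOX11 mark granule neurons that leave the cell cycle and migrate, while neurofilaments are abundant in large neurons with long axons.

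SOX11 and its relative SOX4 are known to activate early neuronal genes, beta-III tubulin among them, through short sites rich in A and T. The 250 bases before a start site were therefore set side by side for the tubulin gene Tubb3, for Dcx and for Map1b. They are RefSeq windows of build GRCm38.p6, and a start was listed for 5 of the 10 genes. Capitals mark matches on either strand to 3 motifs that do not overlap here. These are the SOX core ACAAT, a separate SOX form ACAAAG, and the E-box form CAGNTG that the ATOH1 and NEUROD families bind. Tubb3 lies at chr8:123411303-123411552, plus strand, Dcx at chrX:143933220-143933469, minus strand, the farther upstream of its listed starts, and Map1b at chr13:99516603-99516852, minus strand.
Tubb3: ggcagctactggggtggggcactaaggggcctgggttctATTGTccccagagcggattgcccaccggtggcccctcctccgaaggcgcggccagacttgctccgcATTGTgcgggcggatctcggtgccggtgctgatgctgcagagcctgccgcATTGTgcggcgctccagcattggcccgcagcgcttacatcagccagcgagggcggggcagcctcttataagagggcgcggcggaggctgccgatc
Dcx: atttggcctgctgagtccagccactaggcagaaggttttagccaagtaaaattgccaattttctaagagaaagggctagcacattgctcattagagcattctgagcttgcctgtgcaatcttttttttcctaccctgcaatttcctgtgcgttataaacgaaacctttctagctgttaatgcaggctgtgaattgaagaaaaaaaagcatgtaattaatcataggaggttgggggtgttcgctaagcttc
Map1b: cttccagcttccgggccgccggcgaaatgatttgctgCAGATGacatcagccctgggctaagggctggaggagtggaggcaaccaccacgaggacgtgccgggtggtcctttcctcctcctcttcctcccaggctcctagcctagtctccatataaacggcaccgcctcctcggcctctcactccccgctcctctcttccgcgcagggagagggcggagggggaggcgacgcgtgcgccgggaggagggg
Tubb3 held 3 matches to the SOX core, Dcx and Map1b held 0, and Map1b held 1 E-box. The windows of Map2 and Sox11, also listed but not printed, held 0 matches to both SOX forms. Sox11 held 1 E-box and Map2 held 0. The window of the other listed Dcx start, not printed, held 1 match to the SOX form ACAAAG. Of 32851 upstream windows of this length, 27.7% held at least 1 SOX core, 16.5% at least 1 ACAAAG and 44.8% at least 1 E-box, so any single match is common. The share of windows with 3 matches was not counted. The GC content was 68% for Tubb3, 41.6% for Dcx and 66.4% for Map1b, against a median of 52.4% over all windows. A match is a run of letters and was not tested as a binding site.

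Values are log2 RMA expression values. As a method, RMA corrects background, normalizes arrays and summarises the probes of a gene. The deposited values still differed in distribution between arrays. The median over the tested genes ran from 6.26 on control replicate 2 to 6.92 on Bcl2l1-deleted replicate 2. Precision here is set by having 4 animals in each group. Bcl2l1 read 5.46, 5.46, 5.69 and 5.32 in Bcl2l1-deleted replicates 1 to 4, against 6.88, 6.57, 6.93 and 6.98 in control replicates 1 to 4. Its fitted change was -1.36 (limma adjusted p = 0.00509), and the groups did not overlap. The granule progenitor markers were Atoh1, Gli1, Mycn and 7 others, among them the cell cycle genes Mki67, Top2a, Ccnd1 and Ccnd2. All were measured above the filter on dim genes, with a mean of 9.98 to 10.14 in the Bcl2l1-deleted tumours and 9.50 to 10.09 in the controls. The share of tumour cells was not measured. Control replicate 2 stood apart. Olfactory and vomeronasal receptor genes, whose signal in cerebellum is largely background, had a median of 2.79 to 2.92 in Bcl2l1-deleted tumours, of 3.60 in control replicate 2 and of 2.94 to 3.09 in the remaining controls, and the interquartile range over all genes was 2.40 on that array and 3.29 to 3.66 on the other 7. For the 10 genes, results that rest on this array are therefore given with and without it. Marker means are given over all arrays only.

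None of the 10 genes passed an adjusted p of 0.05 between the genotypes (limma, two-sided, Benjamini-Hochberg over 15526 genes, lowest adjusted p = 0.0578), where 1.6% of tested genes were called lower and 4.93% higher. At an unadjusted p under 0.05, 3 of the 10 were lower (Nefl, Gap43 and Map1b) and 0 higher, where 7.32% of tested genes were lower and 23.1% higher. All 10 had a fitted change below 0, as had 32.6% of tested genes. The median fitted change over the 10 was -0.32 on the log2 scale, beside 0.17 over all tested genes. As the arrays carry bulk tissue, fewer cells of a type and less RNA per cell cannot be told apart in any of these values.

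The number of genes called rested on control replicate 2 and on the scaling. Without control replicate 2, 4 of the 10 passed as lower (Nefl, Nefm, Gap43 and Mapt), where 4.57% of tested genes were called lower. With every array centred on the median of the tested genes, 6 passed as lower (Nefl, Gap43, Stmn2, Mapt, Map1b and Map2), where 4.5% were called lower. With limma's array weights 7 passed as lower (Nefl, Nefm, Gap43, Mapt, Dcx, Map1b and Stmn2), where 6.78% were called lower. The receptor median as covariate gave 2 (Nefl and Nefm, background 2.6%), quantile normalization 2 (Nefl and Gap43, background 1.83%), the fit without Bcl2l1-deleted replicate 3 gave 1 (Nefl, background 1.27%) and the replicate block 1 (Nefl, background 0.966%). No member was called higher in any of the 18 alternatives, and Tubb3 and Sox11 were called in none.

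**Figure D1:**
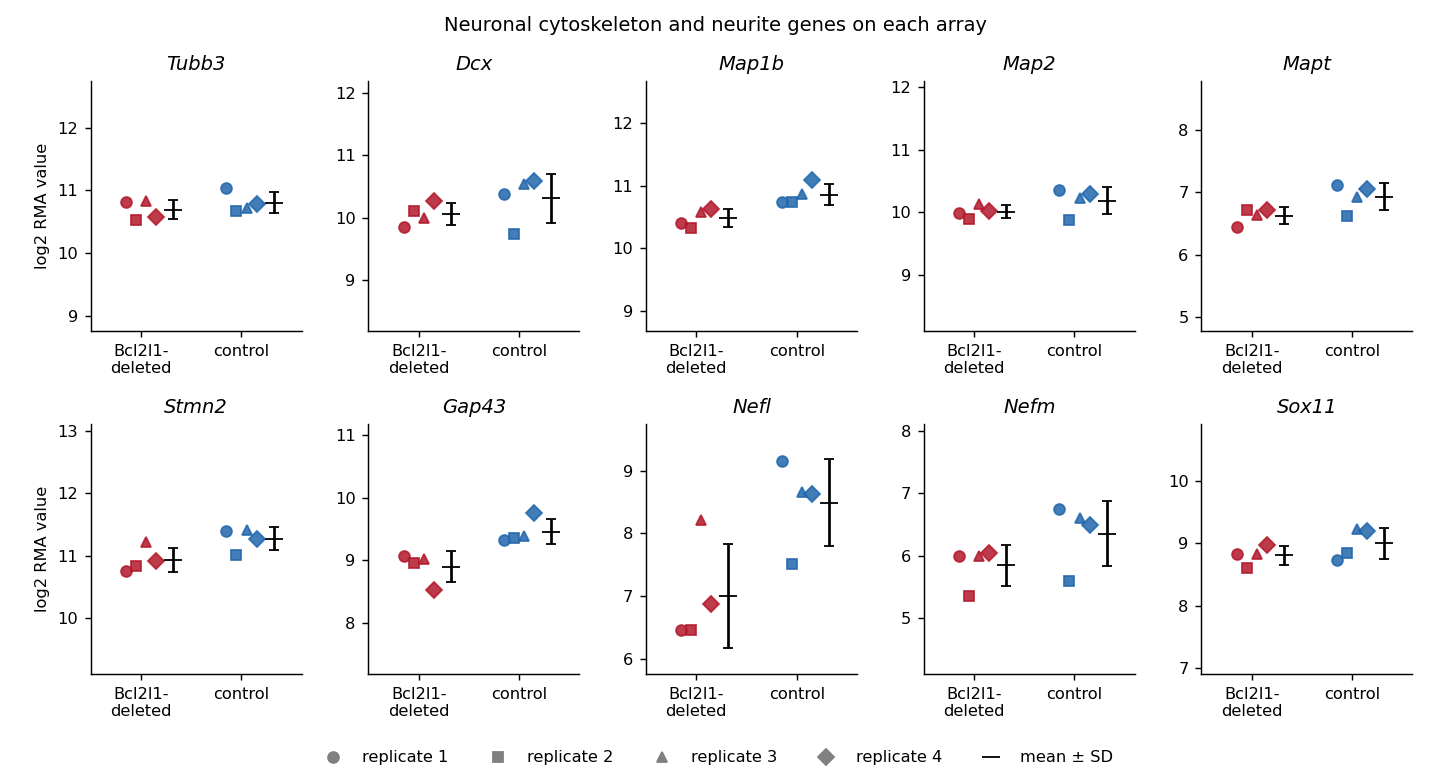
Log2 RMA value (vertical axis, the same span of 4 log2 units in each panel) of the 10 genes on each array, Bcl2l1-deleted tumours in red left of controls in blue, with symbols for replicate numbers and a black bar for the mean ± SD of 4 arrays. Map1b and Gap43 are separate between the groups, and control replicate 2 (blue square) is the lowest control for 7 genes.

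Of the 5 microtubule genes among the 10, Tubb3 had the smallest fitted change. It encodes beta-III tubulin, the neuronal tubulin isotype that marks newborn neurons. Tubb3 read 10.81, 10.53, 10.84 and 10.58 in Bcl2l1-deleted replicates 1 to 4, against 11.05, 10.68, 10.72 and 10.78 in control replicates 1 to 4. The groups overlapped with and without control replicate 2. The fitted change of Tubb3 was -0.11 (95% interval -0.45 to 0.22, limma adjusted p = 0.616), so a decrease of up to 0.45 or an increase of up to 0.22 lies within the error.

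Dcx encodes doublecortin, which bundles microtubules in migrating neurons, and lies on the X chromosome. It read 9.86, 10.11, 10.001 and 10.27 in Bcl2l1-deleted replicates 1 to 4, against 10.38, 9.74, 10.54 and 10.59 in control replicates 1 to 4. Control replicate 2 was the lowest of all 8 arrays, while the other 3 controls lay above every Bcl2l1-deleted array. The fitted change of Dcx was -0.25 (95% interval -0.70 to 0.19, limma adjusted p = 0.402). Without control replicate 2 it was -0.44 (adjusted p = 0.0503), with arrays centred -0.51 (adjusted p = 0.0583), with the receptor covariate -0.57 (adjusted p = 0.0959) and with the Xist level as a covariate -0.31 (adjusted p = 0.392).

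Map1b encodes the earliest of the large microtubule-associated proteins of growing axons. It read 10.41, 10.33, 10.59 and 10.63 in Bcl2l1-deleted replicates 1 to 4, against 10.73, 10.75, 10.86 and 11.09 in control replicates 1 to 4. Every Bcl2l1-deleted array lay below every control (exact permutation test, two-sided, p = 0.0286, the smallest these group sizes allow), as for 2 of the 10 genes and 4.46% of tested genes. The fitted change of Map1b was -0.37 (95% interval -0.70 to -0.038, limma adjusted p = 0.131), which did not pass over all genes.

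Map2, whose product stabilises dendritic microtubules, read 9.98, 9.90, 10.14 and 10.03 in Bcl2l1-deleted replicates 1 to 4, against 10.36, 9.87, 10.23 and 10.29 in control replicates 1 to 4. Mapt, which encodes the axonal protein tau, read 6.44, 6.72, 6.63 and 6.72 in the Bcl2l1-deleted replicates, against 7.12, 6.62, 6.93 and 7.05 in the controls. For both genes the only overlap came from control replicate 2. Their fitted changes were -0.18 for Map2 (95% interval -0.52 to 0.16, limma adjusted p = 0.440) and -0.30 for Mapt (-0.65 to 0.044, adjusted p = 0.212). Without control replicate 2, Mapt was lower by a fitted -0.41 (adjusted p = 0.0480) and Map2 stood at -0.28 (adjusted p = 0.106).

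Stmn2 encodes stathmin-2 (SCG10), a growth cone protein that releases tubulin from microtubule ends and is needed for axon regrowth. It read 10.76, 10.84, 11.21 and 10.92 in Bcl2l1-deleted replicates 1 to 4, against 11.39, 11.02, 11.41 and 11.27 in control replicates 1 to 4. Bcl2l1-deleted replicate 3 and control replicate 2 made the overlap, and the fitted change was -0.34 (95% interval -0.69 to 0.013, limma adjusted p = 0.176). Without control replicate 2 the groups did not overlap, and the fitted change was -0.43 (adjusted p = 0.0599).

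Gap43 encodes the growth-associated protein of the growth cone membrane and had groups that did not overlap. It read 9.06, 8.96, 9.02 and 8.53 in Bcl2l1-deleted replicates 1 to 4, against 9.32, 9.35, 9.39 and 9.75 in control replicates 1 to 4 (exact permutation test, two-sided, p = 0.0286). The lowest value was that of Bcl2l1-deleted replicate 4 and the highest that of control replicate 4. The mean was 8.89 ± 0.25 in the Bcl2l1-deleted tumours and 9.45 ± 0.20 in the controls (SD, n = 4 each), a fitted change of -0.56 (95% interval -0.94 to -0.18), which is 1.48-fold lower. It did not pass over all genes (limma adjusted p = 0.0707), and it passed in 4 of 18 alternatives, among them without control replicate 2 (adjusted p = 0.0437). Control replicate 2, which was low for most of the 10 genes, was not the lowest control for Gap43, Map1b or Sox11.

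The neurofilament genes had the widest spread. Nefl encodes the light chain, without which neurofilaments do not assemble, and Nefm the medium chain, which joins it. Nefl read 6.46, 6.46, 8.21 and 6.87 in Bcl2l1-deleted replicates 1 to 4, against 9.15, 7.51, 8.67 and 8.64 in control replicates 1 to 4. Of the Bcl2l1-deleted arrays, 3 lay below all controls and replicate 3 lay above control replicate 2 only. The mean of Nefl was 6.9997 ± 0.83 in the Bcl2l1-deleted tumours and 8.49 ± 0.69 in the controls (SD, n = 4 each), a fitted change of -1.49 (95% interval -2.42 to -0.56, 2.82-fold lower), with a limma adjusted p of 0.0578. Nefl was the only one of the 10 with a difference of 1.5-fold or more. It passed in 7 of 18 alternatives: without control replicate 2 (-1.82, adjusted p = 0.0194), without Bcl2l1-deleted replicate 3 (-1.90, adjusted p = 0.0228), with the receptor covariate (-2.24, adjusted p = 0.0201), with array weights, quantile normalization or centring, and with the replicate number as a block.

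Nefm read 5.99, 5.36, 6.004 and 6.05 in Bcl2l1-deleted replicates 1 to 4, against 6.74, 5.60, 6.60 and 6.49 in control replicates 1 to 4. Each group had 1 low array, replicate 2 in both, and the other 3 controls lay above every Bcl2l1-deleted array. The fitted change of Nefm was -0.50 (95% interval -1.08 to 0.07, limma adjusted p = 0.211), and -0.76 without control replicate 2 (adjusted p = 0.0265). A further probe set names Nefm together with another gene and was not used here. Nefh, the gene of the heavy chain, had a fitted change of -0.78 (limma adjusted p = 0.236) and read 3.45, 4.99, 5.93 and 4.56 in Bcl2l1-deleted replicates 1 to 4, against 5.96, 5.06, 5.63 and 5.39 in control replicates 1 to 4. Replicate 3 was thus the highest Bcl2l1-deleted array for the light and the heavy chain. Nefh was near background on some arrays. It lay below the 90th percentile of the olfactory and vomeronasal receptor genes on Bcl2l1-deleted replicate 1 (percentile 4.33) and on control replicate 2 (percentile 5.398). The fitted change of Nefh therefore rests in part on values that cannot be told from background. Ina, which encodes the intermediate filament protein alpha-internexin of developing neurons, stood at -0.30 (adjusted p = 0.231), and none of the 5 other intermediate filament genes tested, these included, passed (median -0.04).

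Marker levels of the other cell types in the tissue are given beside Nefl. The 5 measured Purkinje cell markers (Calb1, Car8, Ppp1r17, Pvalb and Pcp4) were all above the dim filter, and their mean log2 level was 7.39, 8.84, 10.30 and 5.91 in Bcl2l1-deleted replicates 1 to 4, against 9.91, 9.21, 8.79 and 9.37 in control replicates 1 to 4. Bcl2l1-deleted replicate 3, the array on which Nefl was highest in that group, had the highest Purkinje mean of all 8 arrays, but Bcl2l1-deleted replicate 4, the array of the lowest Purkinje mean, did not have the lowest Nefl. Among the controls the Purkinje mean was lowest on replicate 3 and Nefl on replicate 2. The 6 inhibitory interneuron markers had a mean of 6.59 on Bcl2l1-deleted replicate 3 and 4.61 to 5.48 on the other Bcl2l1-deleted arrays, against 5.71 to 6.48 on the controls. Of these markers Pax2 lay below the dim filter, and Slc6a5 was called lower at -1.60 (limma adjusted p = 0.0272). Pvalb is on both the interneuron and the Purkinje list, so these means are not independent. The 12 granule neuron markers had a mean of 6.83 to 7.998 in the Bcl2l1-deleted tumours, against 8.05 to 9.03 in the controls, without overlap, and 6 of the 12 (Gabra6, Cbln3, Slc17a7, Fat2, Grm4 and Cntn2) were called lower, where 1.6% of tested genes were. Of these 6, only Cntn2 kept the call without Bcl2l1-deleted replicate 1, and again only Cntn2 without Bcl2l1-deleted replicate 2. Of 7 measured markers of projection neurons, Tbr1, Lhx9 and Chat lay below the dim filter, and the mean was 5.58 to 5.76 in the Bcl2l1-deleted tumours and 5.53 to 5.86 in the controls. The 7 measured oligodendrocyte markers had a mean of 6.15, 6.02, 7.26 and 5.64 in Bcl2l1-deleted replicates 1 to 4, against 8.44, 7.03, 7.41 and 7.53 in control replicates 1 to 4, and Mobp and Mal were called lower. As for Nefl, Bcl2l1-deleted replicate 3 was the highest of its group, control replicate 1 the highest control and control replicate 2 the lowest control. Bcl2l1-deleted replicate 4, the array of the lowest oligodendrocyte mean, again did not have the lowest Nefl. The 6 oligodendrocyte precursor markers had a mean of 8.42 to 8.90 in the Bcl2l1-deleted tumours, against 7.90 to 8.48 in the controls. The 7 astrocyte markers had a mean of 8.80 to 9.37, against 7.93 to 9.05. Gpr17 and Sox10 of the first list and Aldh1l1, S100b and Aqp4 of the second were called higher, where 4.93% of tested genes were. Each lost the call without Bcl2l1-deleted replicate 1 and without replicate 2. The 4 choroid plexus markers had a mean of 5.23 to 5.81 in the Bcl2l1-deleted tumours, against 7.16 to 7.64 in the controls, without overlap. Of these, Ttr had by far the largest fitted change, -5.14 (limma adjusted p = 7.3e-06), and Folr1 was called lower at -0.97 (adjusted p = 0.0219). Kl (-0.58, adjusted p = 0.111) and Clic6 (-0.66, adjusted p = 0.192) overlapped between the groups and did not pass. The 4 fibroblast markers had a mean of 7.13 to 7.70, against 5.62 to 6.38, without overlap. Ogn, Dcn and Col1a2 of this list were called higher, and of these only Ogn kept the call without Bcl2l1-deleted replicate 1 or replicate 2. The part of any of these cell types in the differences of Nefl, Nefm and Gap43 was not tested.

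**Figure D2:**
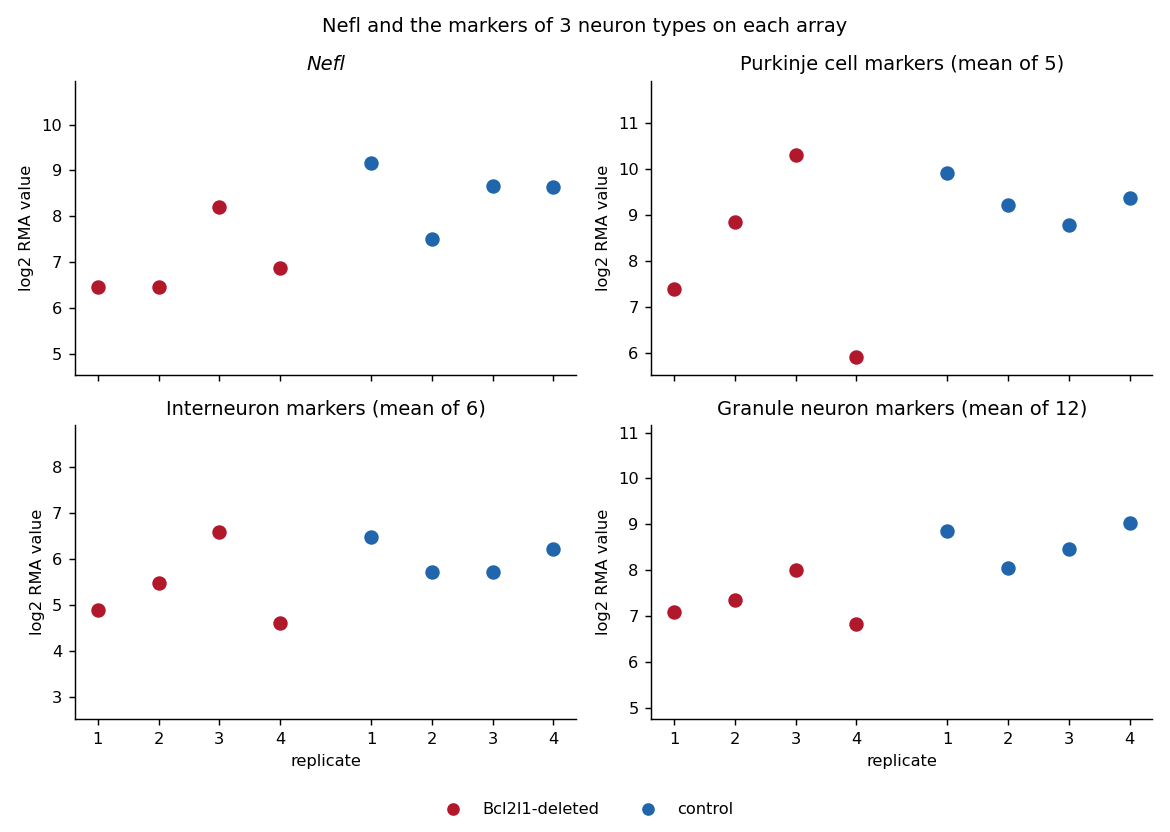
Log2 RMA value of Nefl, and the mean log2 value of the Purkinje cell, interneuron and granule neuron markers, on each array (horizontal axis, replicate number, Bcl2l1-deleted in red left of control in blue, each vertical axis spanning 6.4 log2 units). Bcl2l1-deleted replicate 3 is the highest red point in all 4 panels, at 8.21 for Nefl and 10.30 for the Purkinje cell markers. Of the means not drawn, this array was also the highest of its group for oligodendrocyte, astrocyte, microglial and endothelial markers. It was not the highest for granule progenitor, projection neuron, oligodendrocyte precursor, choroid plexus and fibroblast markers. Pvalb is part of both the Purkinje cell and the interneuron mean.

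Sox11 encodes a SOXC transcription factor of immature neurons. It read 8.83, 8.61, 8.82 and 8.97 in Bcl2l1-deleted replicates 1 to 4, against 8.72, 8.85, 9.22 and 9.20 in control replicates 1 to 4. The groups overlapped through control replicates 1 and 2, and the fitted change was -0.19 (95% interval -0.56 to 0.17, limma adjusted p = 0.432). Sox4, which encodes the closest relative and binds like sequences, had a fitted change of -0.0026 (limma adjusted p = 0.992). Sox12, the other SOXC gene, stood at 0.46 (adjusted p = 0.135) and was the only one of the 3 with Bcl2l1-deleted arrays above all controls.

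Across the 10 genes, control replicate 2 was the lowest control for 7: Tubb3, Dcx, Map2, Mapt, Stmn2, Nefl and Nefm. With it the Bcl2l1-deleted arrays lay below all controls for 2 genes, where 4.46% of tested genes did so, and without it for 8, where 8.48% did. The 2 genes that still overlapped were Tubb3 and Sox11. Background signal and the range of values differed on that array as given above, and their part in its low values was not tested. The median of the 10 genes relative to the median of all tested genes was -0.50 with the values as deposited and -0.50 without control replicate 2. Over the 18 alternatives it lay between -0.58, with a dim filter at the 50th percentile, and -0.36, with no filter. Centring leaves it as it is by construction.

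**Figure D3:**
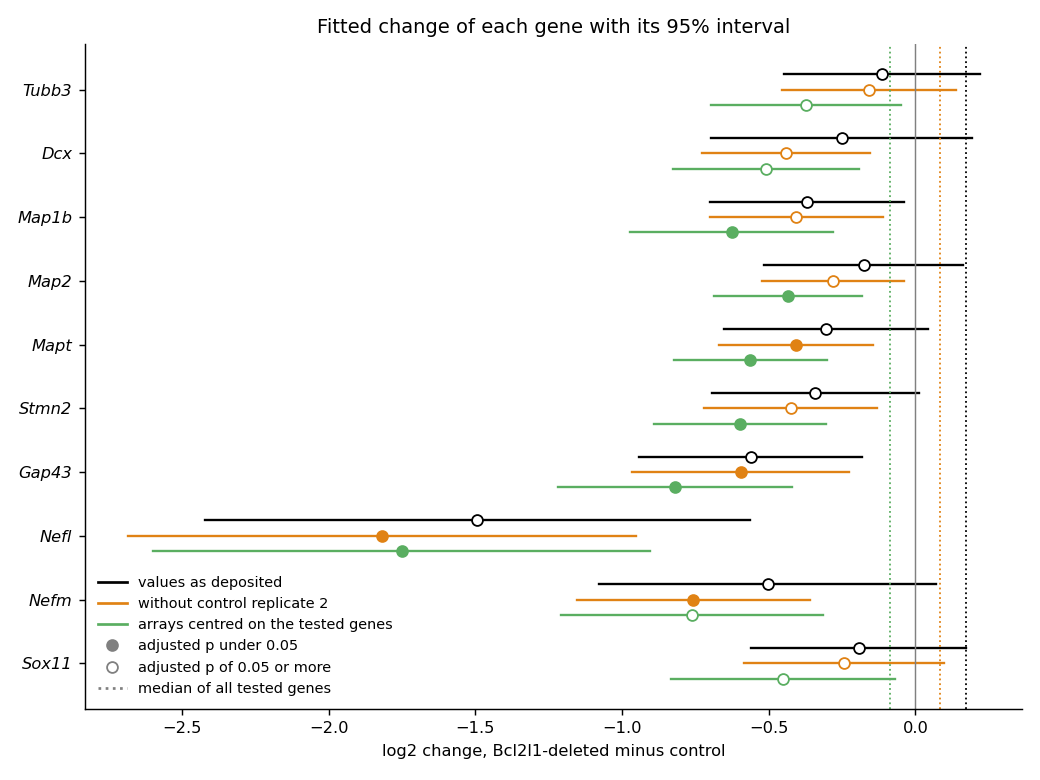
Fitted log2 change, Bcl2l1-deleted minus control, with its 95% interval for each of the 10 genes (rows) under 3 settings (colours), filled where the adjusted p was under 0.05, with dotted lines at the median of all tested genes in each setting. No point is filled with the values as deposited, 4 are filled without control replicate 2 and 6 with centred arrays.

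Differences between related genes within an array do not depend on an equal shift of the whole array, so 6 pairs were set against each other. A narrower range of values, as on control replicate 2, does not cancel in this way. Nefl minus Nefm was 0.47, 1.10, 2.21 and 0.82 in Bcl2l1-deleted replicates 1 to 4, against 2.41, 1.92, 2.07 and 2.15 in control replicates 1 to 4. The light chain thus stood less far above the medium chain signal on 3 Bcl2l1-deleted arrays than on any control, and replicate 3 matched the controls. The difference between the groups was -0.99 (exact permutation test, two-sided, p = 0.114, adjusted p = 0.457 over the 6 pairs). The other 5 pairs had adjusted p between 0.457 and 0.571. A single pair with fully separate groups would reach 0.171 at this group size, so the 0.05 threshold could not be met by 1 pair alone. Map2 minus Mapt differed by 0.13, Map2 minus Map1b by 0.19, Mapt minus Map1b by 0.06, Dcx minus Tubb3 by -0.14 and Stmn2 minus Gap43 by 0.22, each less than the SD of the pair in at least 1 group.

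The profiles were compared by the root mean square difference of values centred per gene over the 8 arrays. Among the 10, Tubb3 and Map2 were nearest each other (0.12), as were Map1b and Sox11 (0.14), and Nefl was farthest from its nearest member, Nefm (0.69). Outside the 10, Rit2 (0.17) and Rasgrf1 (0.21), both known from signalling through small GTPases, came nearest to Nefl, Ly6h (0.090) to Gap43, Galnt17 (0.049) and the collapsin response mediator gene Dpysl3 (0.063) to Dcx, and Gpm6a (0.040), which encodes a neuronal membrane glycoprotein, was second nearest to Map2 after Abhd8 (0.034). Rit2 read 5.47, 5.68, 7.17 and 5.63 in Bcl2l1-deleted replicates 1 to 4, against 8.27, 6.59, 7.53 and 7.31 in control replicates 1 to 4, with the high Bcl2l1-deleted replicate 3 and the low control replicate 2 of Nefl. These are the nearest of 15526 genes over 8 arrays and are given as a description.

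The wider neuronal cytoskeleton was read from 8 lists of 109 tested genes, of which 4 were called lower and 3 higher and 102 did not pass, where 1.6% and 4.93% of tested genes were called. The median fitted change over the 109 was -0.04, beside 0.17 over all tested genes. Of 12 other tubulin genes (median 0.13), Tubb6, a broadly expressed beta-tubulin, was called higher at 1.32 (limma adjusted p = 0.0319). It read 7.23, 7.38, 7.08 and 7.08 in Bcl2l1-deleted replicates 1 to 4, against 6.49, 4.97, 6.33 and 5.71 in control replicates 1 to 4. The tubulins Tuba1a and Tubb2b, abundant in young neurons, stood at 0.18 and 0.28 and did not pass (adjusted p = 0.486 and 0.269). Of 25 other microtubule-associated genes (median 0.01), Nde1, a dynein partner that acts in dividing progenitors, was called higher at 0.92 (adjusted p = 0.0382), while Dclk1, the relative of Dcx, stood at -0.38 (adjusted p = 0.189).

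None of 8 other stathmin and collapsin response mediator genes passed (median 0.02, range -0.27 to 0.14), and none of 12 kinesin and dynein genes (median -0.31). Without control replicate 2, 5 of those 12 motor genes were lower, where 4.57% of tested genes were. The motors with the smallest p were Kif1a, which carries synaptic vesicle precursors, at -0.41 and Kif1b at -0.38 (limma adjusted p = 0.134 and 0.182). Of 16 growth cone and actin genes (median 0.17), Cttn, the actin-binding cortactin, was called higher at 0.78 (adjusted p = 0.0489), and 0 were lower.

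The calls towards lower values lay among axon scaffold and regulator genes. Of 11 axon scaffold genes (median -0.16), L1cam, an adhesion molecule of growing axons, was lower at -2.09 (limma adjusted p = 0.0140), and Ank2, an ankyrin of the axon membrane skeleton, at -0.72 (adjusted p = 0.0457). L1cam read 5.77, 6.55, 6.67 and 5.27 in Bcl2l1-deleted replicates 1 to 4, against 7.85, 7.80, 8.11 and 8.88 in control replicates 1 to 4, so the groups were apart by more than 1 log2 unit. Of 20 neuronal transcription factors and RNA-binding proteins (median -0.21), Neurod2, a proneural factor of maturing neurons, was lower at -1.74 (adjusted p = 0.0214) and the splicing regulator Celf4 at -0.93 (adjusted p = 0.0342). Without control replicate 2, 7 of the 20 were lower and 0 higher, where the same 4.57% of tested genes were lower.

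The call of L1cam was lost in 1 of 18 alternatives, without Bcl2l1-deleted replicate 1 (adjusted p = 0.0649). Neurod2 kept its call in 14, Celf4 and Tubb6 in 11, Nde1 and Ank2 in 9 and Cttn in 7, each losing it without Bcl2l1-deleted replicate 1 and without replicate 2, and, except Neurod2, without Bcl2l1-deleted replicates 3 and 4. Without control replicate 4 all of these but L1cam lost the call, and without control replicate 3 Celf4, Nde1, Ank2 and Cttn did. Microglial and endothelial marker means lay higher in every Bcl2l1-deleted tumour than in any control (means of 7.93 to 8.08 against 6.52 to 7.44 for 8 microglial markers, and 7.14 to 7.28 against 6.25 to 6.64 for 6 endothelial markers). Of single tested genes, 19% lay higher without overlap. Called higher were 5 of the microglial and 4 of the endothelial markers, where 4.93% of tested genes were. Each lost the call without Bcl2l1-deleted replicate 1 and without replicate 2. The part of these cell types in the calls of the wider lists was not tested.

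**Figure D4:**
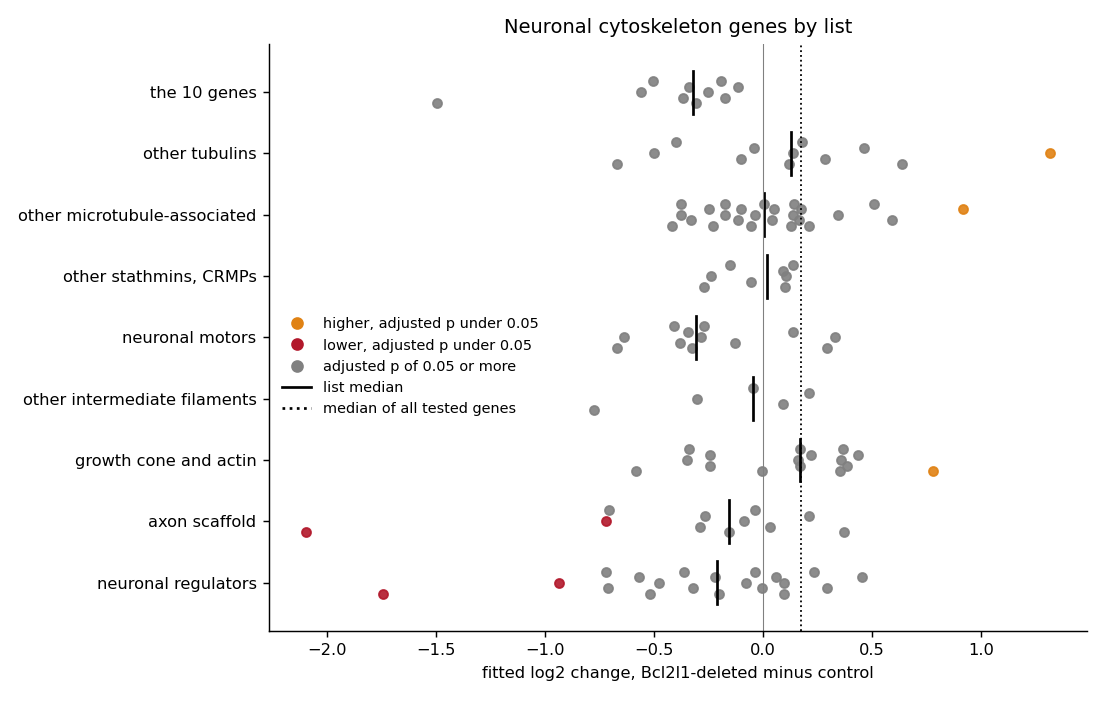
Fitted log2 change, Bcl2l1-deleted minus control (horizontal axis), of each tested gene by list (rows), orange where called higher, red where called lower and grey otherwise, with a black bar for the list median and a dotted line at 0.17, the median of all tested genes. The 10 genes all lie left of the dotted line, with Nefl far left at -1.49.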

How the data were processed

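Expression was measured in 4 Bcl2l1-deleted and 4 control tumours on Affymetrix whole-transcript arrays. Per the labels, the authors obtained RMA values from Partek, and the deposited numbers are in log2 units. Neither the version and options nor a genome build is given in the sources used here. Groups follow the sample titles and the genotype field; another field reads deleted for all 8 samples and was not used. Whether replicates shared a litter or batch is not given.

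Of 41345 probe sets, 23521 name 1 gene, 1814 several and 16010 none; symbols were checked through Entrez identifiers against a RefSeq table (GRCm38.p6), which matched 23328 and changed 0. The probe set with the highest mean over the arrays stood for a gene. Dim genes, with a mean not above the 30th percentile (4.38), were left out. For differences (Bcl2l1-deleted minus control), lmFit and eBayes of limma 3.58.1 were run in R 4.3.3 (two-sided, Benjamini-Hochberg over 15526 genes). Single values were compared by exact permutation over 70 regroupings, and pairs adjusted over 6. The code was tested on simulated data. Genes named were the 10 members, Bcl2l1, list genes called or with the smallest p, marker genes of each list, and for each member the nearest profiles; Sox4, Sox12, Tuba1a, Tubb2b and Dclk1 were named as relatives after their values were seen. Members and lists were chosen with earlier results of these data known. Alternatives covered the dim filter, the variance prior, normalization, covariates, array weights, a replicate block, the choice of probe set and leaving out each array.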

Additional observations from a re-analysis of the deposited data

Results flagged for a closer look

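Within groups of 4 arrays, 1 array stood far from the other 3 in 4 of 94 groups checked, where chance gives about 1 in 20. Gap43 read 9.75 on control replicate 4, against 9.32 to 9.39 on the other controls. Nefm read 5.36 on Bcl2l1-deleted replicate 2, while that group otherwise lay at 5.99 to 6.05. Map2 minus Map1b was -0.61 on Bcl2l1-deleted replicate 4, while the rest of the group lay at -0.45 to -0.43. Mapt minus Map1b was -3.61 on Bcl2l1-deleted replicate 2, and at -3.97 to -3.92 on the rest of the group.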

How the results depend on the processing

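All 10 genes kept a fitted change below 0 in all 18 alternatives, in which 21.9% (filter at the 50th percentile) to 59.1% (centring) of all tested genes had one. The number called lower, 0 with the values as deposited, was 2 with quantile normalization, 6 with arrays centred on the tested genes, 2 with the receptor median as a covariate, 1 with the replicate block, 7 with array weights, and 0 to 4 with each array left out in turn. It stayed 0 with the other filters, the intensity trend, the Xist covariate and the mean over probe sets. The number of all genes called, 1013, was 548 without a dim filter, 200 with Xist as a covariate, 508 with the replicate block, 3494 with array weights, and 20 to 2100 with an array left out. In the wider lists, genes called lower (4) numbered 7 with quantile normalization, 18 with centring, 11 with the receptor covariate, 1 with Xist, 27 with array weights and 0 to 15 with an array left out. Genes called higher (3) numbered 1 without a dim filter, 0 with the receptor covariate, 0 with Xist, 5 with array weights and 0 to 3 with an array left out. The causes were not tested. Of all genes, 765 were called higher and 248 lower with the values as deposited, 390 and 699 with centring, and 273 and 404 with the receptor covariate. With an array left out, the difference of Mapt minus Map1b ranged over -0.021 to 0.17. It turned to -0.021 without Bcl2l1-deleted replicate 2 and to -0.0023 without control replicate 2, while the other 5 pairs kept their sign. No pair passed, and every pair overlapped between the groups (lowest p = 0.114, exact permutation test). A single separated pair would reach an adjusted p of 0.171, so 1 pair alone could not have passed. Same-numbered samples did not deviate together over the tested genes (correlations between -0.13 and 0.053, and 0 of 8 correlated best with their own number). With 4 arrays in each group, these values cannot show whether same-numbered animals shared a litter or batch. With the replicate block Nefl passed (adjusted p = 0.0492). All 10 genes read above the 90th percentile of the receptor genes on all 8 arrays, Nefm on control replicate 2 narrowly (5.60, against a percentile of 5.398).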
